A study of Mus musculus with 6 samples.

Results

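Chromatin accessibility was described at 9 genes whose products receive interferon and pass its signal to the nucleus in mouse leukaemia cells. They were the receptor chains Ifnar1, Ifnar2, Ifngr1, Ifngr2 and Il10rb, the kinases Jak1, Jak2 and Tyk2, and the transcription factor Stat2. A region of open chromatin, termed a peak, was counted for a gene when the deposited annotation gave that gene as the nearest and the peak lay within 100000 bp of its transcription start site (TSS). Of 175929 peaks in all, 174 met this rule. They comprised 9 peaks of Ifnar1, 27 of Ifnar2, 6 of Ifngr1, 21 of Ifngr2, 18 of Il10rb, 52 of Jak1, 25 of Jak2, 11 of Tyk2 and 5 of Stat2. No peak (0) assigned to these genes lay outside the limit, and the farthest inside it were Jak1 peaks at 97.0 and 97.3 kb.

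Type I interferons bind a receptor made of the IFNAR1 and IFNAR2 chains, whereas interferon gamma binds IFNGR1 and IFNGR2. The receptor chains have no enzyme activity of their own and hold Janus kinases, TYK2 and JAK1 at the type I receptor and JAK1 and JAK2 at the interferon gamma receptor. The kinases phosphorylate STAT proteins. A complex that holds STAT2 and IRF9 binds the interferon-stimulated response element (ISRE), whereas paired STAT proteins bind the gamma-activated site (GAS). USP18 binds IFNAR2 and holds back signalling at the type I receptor, and it also removes ISG15 from proteins.

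The comparison addressed how accessibility at these genes differed after deletion of 1 Usp18 allele in established leukaemia. ATAC-seq, in which a transposase inserts adapters into open DNA, was performed on Usp18+/f UBCER-Cre AE9a leukaemia cells that had been transplanted into recipient mice. Both groups carried the AE9a oncogene, 1 floxed Usp18 allele, and a tamoxifen-activated Cre that a ubiquitin C promoter drives in most cell types. Once mice were sick, they received oil (replicates 1, 2 and 4) or tamoxifen (replicates 1, 3 and 4), and Lin- c-Kit+ GFP+ splenocytes were sorted on day 3 of treatment, counted from the first injection. Tamoxifen itself, active Cre and loss of the allele came together in 1 group, and so they cannot be told apart here. The study used adult mice of both sexes. Here n counts libraries. The study's methods describe several mice per group for the sorted cells used in ATAC-seq, but as the labels do not tie each library to its own mouse, p-values measure the spread between these libraries.

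Libraries held 57.4 to 74.7 M tags (1 M is 1000000), of which 17.5 to 21.1 M lay in peaks. Oil libraries correlated with each other at 0.974 to 0.975 across peaks and tamoxifen replicates 1 and 3 at 0.968. Tamoxifen replicate 4 stood apart, with 0.949 against the other tamoxifen libraries and 0.960 to 0.964 against the oil libraries. Of 4 genes that mark the sorted cells, all 4 had a peak within 1000 bp of the TSS, and the Kit peak held 757.5 tags after oil and 787.3 after tamoxifen. Cd34 was the 1 of them that changed, from 94.7 to 270.5 tags (DESeq2 adjusted p = 7.3e-12). T cell markers had a peak for 1 of 5 genes, at a summed 13.5 to 24.4 tags, B cell markers for 2 of 5, at 90.2 to 143.1 tags, and mature myeloid markers for 3 of 7. The mature myeloid peaks summed to 80.7 to 90.7 tags after oil and 96.0 to 116.0 after tamoxifen, so that every tamoxifen library lay above every oil library. Their log2 changes were 0.43 at Itgam, 0.40 at Mmp9 and -0.05 at Adgre1, with DESeq2 adjusted p-values of 0.82 or more. Erythroid markers had a peak for 5 of 6 genes, at a summed 1511 to 1588 tags after oil and 1418 to 1492 after tamoxifen. These groups did not overlap either, nor did those of the sorted-cell markers, at 1755 to 1792 after oil and 1830 to 2111 after tamoxifen. Over all peaks taken singly, 11.9% were higher and 10.0% lower without overlap. The part of these cell types in the values at the 9 genes was not tested.

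Sequences are shown for the 3 peaks that passed the test and, for their ISRE and GAS letters, for the stretch upstream of the Stat2 and Ifnar2 start sites. The ISRE letters of Stat2 and the GAS letters of Ifnar2 lie outside the peaks of the table, so that no tags were compared at them. All are the plus strand of GRCm38.p6, the build that mm10 names, read 5′ to 3′ from RefSeq. Capitals mark a match on either strand to ISRE (GAAANNGAAA), GAS (TTCNNNGAA), the core RUNX site (TGTGGT), which AML1 binds, or AP-1 (TGANTCA). The first 3 are the central 200 bp of each peak, and the last pair are the 250 bp before the TSS.
Ifnar2 peak at -6002 bp, chr16:91366681-91366880, with AP-1 and RUNX letters: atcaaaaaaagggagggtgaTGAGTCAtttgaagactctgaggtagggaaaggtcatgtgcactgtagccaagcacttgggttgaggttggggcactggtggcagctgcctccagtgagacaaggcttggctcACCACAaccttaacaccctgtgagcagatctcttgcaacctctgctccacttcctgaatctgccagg
Ifnar2 peak at -5504 bp, chr16:91367179-91367378, with GAS letters: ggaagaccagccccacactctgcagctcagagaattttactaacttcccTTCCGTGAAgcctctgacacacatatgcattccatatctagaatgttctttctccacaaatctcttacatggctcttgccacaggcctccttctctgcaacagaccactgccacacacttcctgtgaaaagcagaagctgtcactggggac
Jak1 peak at -33283 bp, chr4:101298465-101298664, with ISRE letters: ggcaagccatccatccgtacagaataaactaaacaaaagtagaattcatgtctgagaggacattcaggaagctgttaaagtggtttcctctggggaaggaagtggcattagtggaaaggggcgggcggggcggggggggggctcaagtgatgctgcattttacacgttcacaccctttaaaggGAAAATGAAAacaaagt
Stat2 upstream, chr10:128270248-128270497, with ISRE and RUNX letters: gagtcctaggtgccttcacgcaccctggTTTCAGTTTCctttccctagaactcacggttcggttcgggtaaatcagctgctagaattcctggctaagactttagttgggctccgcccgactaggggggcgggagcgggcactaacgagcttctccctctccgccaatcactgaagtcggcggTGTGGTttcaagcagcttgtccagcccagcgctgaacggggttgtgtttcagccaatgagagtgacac
Ifnar2 upstream, chr16:91372533-91372782, with GAS letters: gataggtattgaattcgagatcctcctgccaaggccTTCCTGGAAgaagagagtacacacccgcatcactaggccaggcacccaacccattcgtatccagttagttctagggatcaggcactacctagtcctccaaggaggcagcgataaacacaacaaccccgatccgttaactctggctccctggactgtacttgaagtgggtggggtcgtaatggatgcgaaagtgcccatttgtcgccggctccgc

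Peaks at the 9 start sites were open to a similar extent in both groups. Tags are given as raw tags divided by a size factor per library, and fold changes come from a DESeq2 fit of all peaks. At the TSS peak of Ifnar1, the chain that holds TYK2 (chr16:91485016-91485288), the oil libraries held 913, 905 and 849 tags and the tamoxifen libraries 925, 992 and 855. The log2 change was 0.05 (SE 0.082). At that of Ifnar2, the chain that holds JAK1 and binds USP18 (chr16:91372641-91372846), the values were 389, 347 and 370.2 after oil and 337, 352 and 356 after tamoxifen, a log2 change of -0.08 (SE 0.11). Groups overlapped at both. At the Stat2 TSS peak (chr10:128270354-128270565), both groups averaged 675 tags, with 683, 674 and 669.7 after oil and 647, 715 and 664 after tamoxifen.

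The remaining 6 TSS peaks gave the same picture. Log2 changes over the 9 TSS peaks ran from -0.08 at Ifnar2 to 0.09 at Ifngr2, the groups overlapped at all 9, and the smallest DESeq2 adjusted p was 0.94. The 95% intervals of the fold change differed in width between genes, from 0.897 to 1.10 at Tyk2 to 0.816 to 1.09 at Ifnar2 and 0.921 to 1.22 at Ifngr2, and changes within them were not detectable at this depth and number of libraries. Per 100 bp of peak, over all 6 libraries, Ifnar1 was highest at 333 ± 19.2 tags (SD, n = 6), followed by Ifngr1 at 326 ± 15.7, Stat2 at 320.1 ± 10.8 and Jak1 at 309 ± 13.9, each overlapping with the gene before it. Tyk2 at 282 ± 8.00 lay below Jak1 without overlap. Jak2 at 221 ± 15.0, Ifngr2 at 220.7 ± 17.9 and Il10rb at 203 ± 6.83 overlapped in turn and lay below Tyk2, and Ifnar2 was lowest at 175 ± 9.01 without overlap. The order depends on peak width. By tags per peak, not divided by length, Tyk2 (331 bp) lay above Jak1 (200 bp), at 937 against 620 tags after oil. By that measure Ifnar2 still ranked at the 92.95 percentile of all peaks. The plot of start-site peaks by library gives the values per 100 bp.

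**Figure D1:**
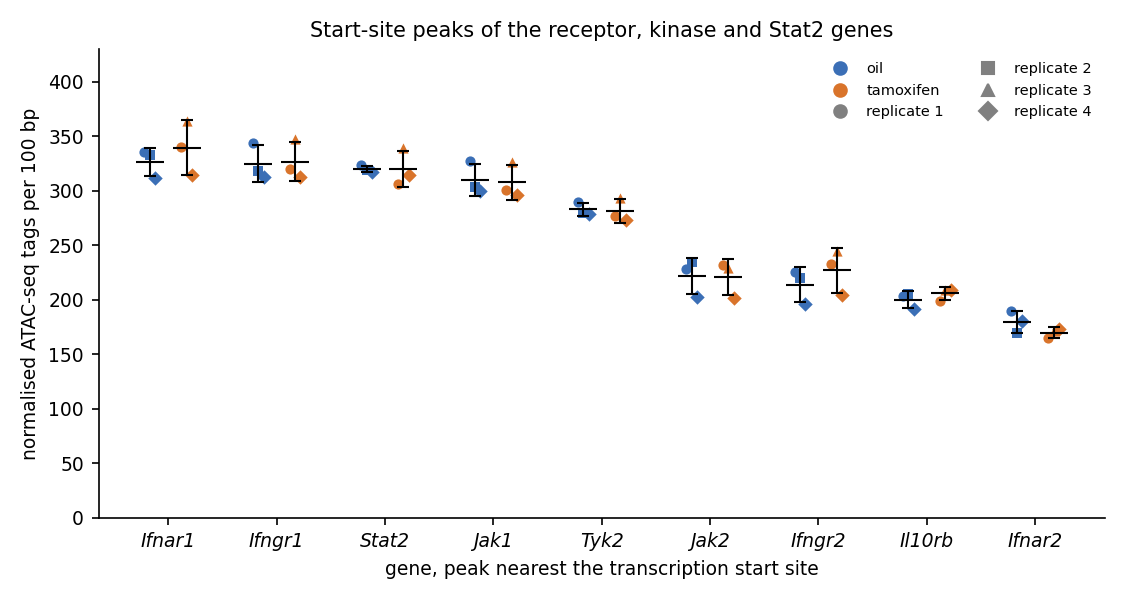
Normalised tags per 100 bp (y axis) at the peak nearest the TSS of each gene (x axis, ordered by mean level). Points are libraries, blue after oil and orange after tamoxifen, with a marker shape per replicate number, and black bars give the mean and SD of 3 libraries. The groups overlap at all 9 genes, and the means run from 333 tags per 100 bp at Ifnar1 to 175 at Ifnar2 over both groups.

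Away from the start sites, 3 of the 174 peaks passed an adjusted p under 0.05, all 3 with more tags after tamoxifen. This was 1.72% of the peaks, against 1.21% of all peaks that passed with more tags, and none (0) passed with fewer, against 0.167% of all peaks. With a fold change over 2 as well, 1 peak of Jak1 remained (0.575% of member peaks and 0.575% of all peaks, higher), and none (0) was lower, against 0.0659% of all peaks. Both shares were therefore near those of the table as a whole. Unadjusted two-sided p-values under 0.05 were found at 8 peaks with more tags (4.60%, against 6.16% of all peaks) and 7 with fewer tags (4.02%, against 2.82% of all peaks). By edgeR they were 14 and 19, the higher ones were 4 without tamoxifen replicate 3 and 5 without oil replicate 2 or 4, and the lower ones were 13 without tamoxifen replicate 4 and 1 to 3 without any other library. Shares of all peaks were not computed in these fits, so 6.16% and 2.82% are no reference for these counts. The 3 peaks were distal, that is over 3000 bp from the TSS, as were 128 of the 174. The count of 3 rested on the libraries, since 1 peak passed without tamoxifen replicate 3 and 6 without tamoxifen replicate 4. Calls over all peaks moved the same way, from 2430 to 618 without tamoxifen replicate 3 and to 6507 without tamoxifen replicate 4.

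A pair of the 3 lay side by side upstream of Ifnar2, 174 bp apart. The peak at -6002 bp (chr16:91366641-91366921) held 149, 139.5 and 132 tags in the oil libraries and 253, 324 and 194 in the tamoxifen libraries. It rose 1.84-fold (log2 change 0.87, SE 0.17, adjusted p = 1.7e-04 by DESeq2). Every tamoxifen library lay above every oil library, with replicate 3 highest and replicate 4 nearest to oil. The peak at -5504 bp (chr16:91367095-91367463) held 129, 124 and 123 tags after oil and 209.8, 273 and 176 after tamoxifen. It rose 1.75-fold, with a log2 change of 0.81 (SE 0.17) and an adjusted p of 7.3e-04. The order of the tamoxifen libraries was the same at both peaks. Since neighbouring peaks in 1 set of libraries are not independent, the pair counts as 1 site rather than as repeated evidence.

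The Ifnar2 pair is annotated as intergenic in the deposited table. In the RefSeq annotation it lies within the long noncoding RNA gene Gm36587, on the minus strand and so opposite to Ifnar2. The peak at -6002 bp overlaps 1 of its 6 exons, and the peak at -5504 bp lies 74 bp from an exon, within an intron. The Ifnar2 gene itself begins 5320 bp from the nearer peak, and Il10rb is the next protein-coding gene at 38694 bp. As printed above, the centre of the first peak holds AP-1 and RUNX letters and that of the second the GAS letters, both descriptions of the sequence alone.

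The test of the second peak rested on tamoxifen replicate 3. Without that library its adjusted p was 0.11 at a log2 change of 0.62, and the first peak was at 0.047 with 0.68. Without tamoxifen replicate 4, the library that stood apart, the log2 changes were 1.04 and 0.95. Another Ifnar2 peak, at -17402 bp (chr16:91355268-91355494), had the smallest p among the peaks that did not pass. It held 71.7, 74.1 and 74.4 tags after oil and 123, 148 and 86.6 after tamoxifen, with a log2 change of 0.69 (SE 0.22) and an adjusted p of 0.084. It passed by edgeR (adjusted p = 0.038) and without tamoxifen replicate 4 (0.0026), and its adjusted p was 0.36 to 1.0 without any other library. Groups did not overlap there, and the order of the tamoxifen libraries was again replicate 3, 1 and 4. The distal peak of the gene with the most tags, at -19894 bp (chr16:91352741-91353038), held 647, 602 and 554 tags after oil and 568.5, 610.5 and 588 after tamoxifen, a log2 change of -0.03 with overlapping groups. Per 100 bp it held 202 tags after oil, against 180.0 at the TSS peak of Ifnar2, and the TSS peak held 11.9% of the tags over the 27 peaks of the gene.

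**Figure D2:**
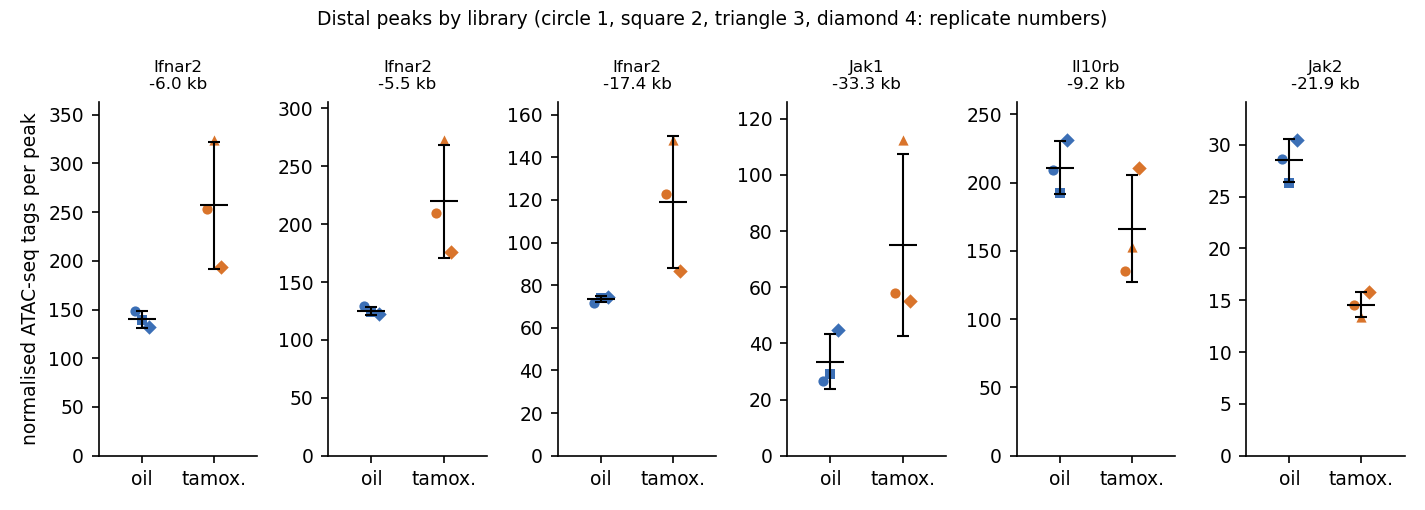
Normalised tags per peak (y axes, each from 0) at 6 distal peaks, by group (x axes). Points are libraries, blue after oil and orange after tamoxifen, with black bars for the mean and SD of 3 libraries. The 3 tamoxifen values lie above the 3 oil values at the Ifnar2 and Jak1 peaks and below them at the Jak2 peak, whereas 1 tamoxifen library falls among the oil libraries at the Il10rb peak. The Ifnar2 and Jak1 panels show the member peaks with the smallest p, and the Jak2 panel the smallest p of that gene. Separated groups at these peaks were therefore favoured by the choice of panels.

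Jak1 encodes the kinase that the type I, interferon gamma and many cytokine receptors share, and it had the most peaks of the 9 genes. The peak at -33283 bp (chr4:101298456-101298675) was intergenic, 33174 bp from Jak1 and 2770 bp from the long noncoding RNA gene Gm12796. Oil libraries held 26.5, 29.3 and 44.8 tags and tamoxifen libraries 58.0, 112.5 and 55.0. It rose 2.24-fold, with a log2 change of 1.15 (SE 0.32), and the adjusted p by DESeq2 was 0.029. The groups did not overlap, but tamoxifen replicate 3 held nearly as many tags as the other two together. Without it the log2 change was 0.74 with an adjusted p of 0.95, and the call was also lost without oil replicate 1 (0.35) or oil replicate 2 (0.28). The edgeR quasi-likelihood test gave an adjusted p of 0.071. The end of the printed sequence holds the ISRE letters, which 2.34% of the distal member peaks and 2.07% of all distal peaks contain.

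Other Jak1 peaks went in both directions. The promoter peak at -460 bp (chr4:101265633-101265852) held 107, 131 and 121 tags after oil and 78.3, 82.4 and 97.8 after tamoxifen, with a log2 change of -0.47 (SE 0.19), an unadjusted p of 0.015 and an adjusted p of 0.32. It lies 233 bp from the TSS peak, whose log2 change was -0.01. The intergenic peak at -24294 bp was low throughout, at 28.7, 29.3 and 33.2 tags after oil and 16.4, 10.0 and 22.4 after tamoxifen. In the first intron, the peak at 8396 bp held 77.2, 57.5 and 74.4 tags after oil and 115, 98.0 and 76.4 after tamoxifen, and the groups overlapped. Of the 52 Jak1 peaks, 29 had a positive and 23 a negative log2 change, with a median of 0.05. Over all 52, summed tags ran from 4626 to 4716 after oil and from 4599 to 4971 after tamoxifen.

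Jak2, the kinase held at IFNGR2 and at several growth factor receptors, had no peak (0 of 25) that passed. The peak with the smallest p, at -21865 bp (chr19:29229789-29230087), held 28.7, 26.3 and 30.5 tags after oil and 14.5, 13.4 and 15.8 after tamoxifen. Its log2 change was -0.97 (SE 0.41) with an unadjusted p of 0.018 and an adjusted p of 0.36, and the groups did not overlap. The edgeR test gave an adjusted p of 0.039 at a log2 change of -0.96. The peak was called in the oil group alone and so entered the table through the group where it held more tags. These values are therefore not independent of that choice. The distal Jak2 peak with the most tags, at -14590 bp, held 198.5, 158 and 148 tags after oil and 179, 213 and 215 after tamoxifen, which overlapped. Negative log2 changes were found at 19 of the 25 Jak2 peaks, with a median of -0.16. Of the 25, 6 were called in the oil group alone and 1 in the tamoxifen group alone.

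Tyk2, the kinase held at IFNAR1, had a TSS peak (chr9:21131222-21131553) with 960.5, 927 and 924 tags after oil and 917, 973 and 905 after tamoxifen, and the groups overlapped. None (0) of its 11 peaks reached an unadjusted p under 0.05. The peak with the smallest p lay within the gene at 14679 bp and held 49.6, 45.9 and 43.9 tags after oil and 31.9, 34.5 and 34.5 after tamoxifen, with an adjusted p of 0.73. The distal peak with the most tags, at -6137 bp, held 93.7, 98.5 and 96.8 tags after oil and 125, 111.4 and 109.9 after tamoxifen, with an adjusted p of 0.79. Groups did not overlap at either peak, one lower and the other higher.

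Stat2, the partner of IRF9 in the complex that binds the ISRE, had 5 peaks. None (0) had a positive log2 change, and none reached an unadjusted p under 0.05. The peak with the smallest p was at 1482 bp in the first intron and held 111, 96.6 and 96.8 tags after oil and 76.4, 71.3 and 98.7 after tamoxifen (log2 change -0.30, adjusted p = 0.78). At the intronic peaks at 4631 and 13709 bp, the 3 tamoxifen values lay below the 3 oil values, with log2 changes of -0.40 and -0.31. These distal tags summed to 116, 114 and 115 after oil and to 86.0, 92.5 and 94.1 after tamoxifen. The sum was computed after the values were seen and carries no test, as an exact two-sided permutation test of 3 against 3 libraries cannot fall below 0.1. The printed Stat2 sequence holds ISRE letters, and Stat2 was the 1 promoter with them among the 8 of these genes in the RefSeq table, against 3.44% of 32851 promoters of all genes.

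Ifnar2, Il10rb, Ifnar1 and Ifngr2 lie in this order on chromosome 16, with start sites at 0, 33.5, 112.4 and 174.3 kb from that of Ifnar2. The 75 peaks assigned to these 4 genes summed to 9671 to 9971 tags after oil and 9506 to 10109 after tamoxifen, which overlapped. Log2 changes were positive at 28 and negative at 47 of them, with a median of -0.10. The 2 peaks that passed were those of Ifnar2.

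**Figure D3:**
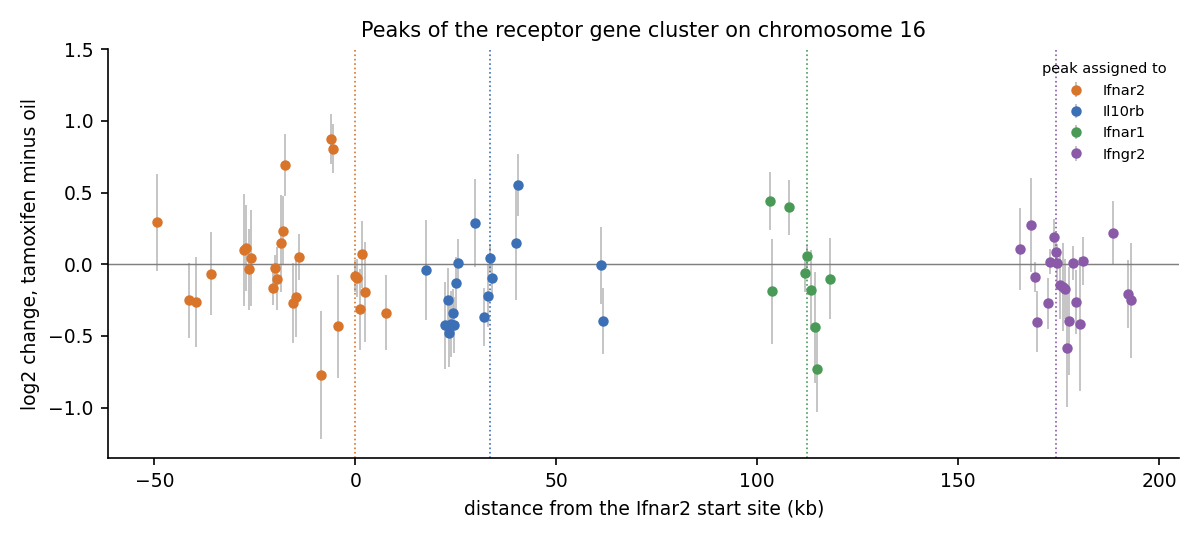
Log2 change of tags, tamoxifen minus oil (y axis), at the 75 peaks of the receptor gene cluster against distance from the Ifnar2 TSS in kb (x axis). Points are peaks with SE bars, coloured by the gene they are assigned to, and dotted lines mark the 4 start sites. The pair upstream of Ifnar2 lies at 0.87 and 0.81, while the peaks at the start sites lie near 0.

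Il10rb encodes the shared chain of the receptors for interleukin 10 and for interferon lambda. None (0) of its 18 peaks passed, and 13 had a negative log2 change. The distal peak with the most tags, at -9209 bp (chr16:91396899-91397153), held 209.5, 192 and 231 tags after oil and 135, 153 and 210.5 after tamoxifen, with a log2 change of -0.34 (SE 0.17), an unadjusted p of 0.040 and an adjusted p of 0.51. By the deposited annotation it lies in the last intron of an Ifnar2 transcript, although Il10rb has the nearest start site. It was part of a run of 5 peaks between chr16:91395725 and 91397415, singled out after the values were seen. All 5 were lower after tamoxifen, with log2 changes of -0.48 to -0.25. Taken singly, 3 fell below a DESeq2 p of 0.05 before adjustment, a count that depends on how the run was picked. The 5 peaks lie close together and come from the same libraries. They are therefore read as a single site and not as 5 separate observations. Summed tags of the run were 552.5, 575.5 and 642 after oil and 389, 439 and 539 after tamoxifen. Tamoxifen replicate 4 was again nearest to oil, and without it the peak at -9209 bp had a log2 change of -0.55 with an adjusted p of 0.028. Within the Il10rb gene, by contrast, the intronic peak at 7046 bp (chr16:91413164-91413399) held 69.5, 79.0 and 71.7 tags after oil and 94.7, 136 and 94.1 after tamoxifen, with a log2 change of 0.55 (SE 0.21) and an adjusted p of 0.26.

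Ifnar1 had 9 peaks. An unadjusted p under 0.05 was reached by 2 with more tags (22.2%, against 6.16% of all peaks) and by 1 with fewer (11.1%, against 2.82%), shares that rest on few peaks. Upstream, the peak at -9264 bp (chr16:91475820-91476083) held 87.1, 102 and 105 tags after oil and 108, 176 and 118 after tamoxifen, and the peak at -4545 bp held 90.4, 81.0 and 95.03 against 104, 128 and 119. Their log2 changes were 0.44 and 0.40, and the groups did not overlap. In the first intron, the peak at 2471 bp (chr16:91487504-91487868) went the other way, with 43.0, 52.7 and 53.8 tags after oil and 30.9, 26.7 and 32.6 after tamoxifen, a log2 change of -0.73 (SE 0.30) and an unadjusted p of 0.016. Adjusted p-values of the 3 peaks were 0.33 to 0.50, so none passed. The peak at 2471 bp was called in the oil group alone, where it held more tags.

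No peak (0) of the interferon gamma receptor genes passed. Ifngr1 encodes the chain that binds the ligand and holds JAK1, and 70.8% of the tags over its 6 peaks lay in the TSS peak. Its low peak at -5400 bp held 27.6, 21.5 and 19.7 tags after oil and 9.67, 6.68 and 19.6 after tamoxifen, with an unadjusted p of 0.059 and an adjusted p of 0.59. That peak was called in the oil group alone, where it held more tags. Ifngr2 encodes the chain that holds JAK2, and no peak (0 of 21) reached an unadjusted p under 0.05. At -4704 bp it held 88.2, 93.6 and 98.6 tags after oil and 67.7, 64.6 and 80.1 after tamoxifen, with a log2 change of -0.40 (SE 0.21). The neighbouring peak at -5137 bp held 198 tags per 100 bp after oil, against 31.3 at -4704 bp. Its libraries had 457, 446 and 401 tags after oil and 433, 385.5 and 402.5 after tamoxifen, and the groups overlapped.

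Across all 174 peaks, the 3 tamoxifen values lay above the 3 oil values at 16 (9.20%), against 11.9% of all peaks, and below them at 31 (17.8%), against 10.0% of all peaks. The lower ones comprised 6 of 18 Il10rb peaks, 5 of 21 Ifngr2 peaks, 4 each of Ifnar2, Jak1 and Jak2, 3 of Tyk2, 2 each of Ifnar1 and Stat2, and 1 of Ifngr1. Log2 changes were negative at 103 and positive at 71 of the peaks, with a median of -0.06, where all peaks had a median of -0.0015. Among the 46 peaks within 3000 bp of a TSS, 10 lay below without overlap (21.7%, against 11.0% of all such peaks), and the median was -0.10 against -0.01. Some lower peaks, such as Jak2 at -21865 bp and Ifnar1 at 2471 bp, were in the peak list of the oil group alone. They entered the table through the group where they were high, so these counts are not independent of the peak lists. Each library pools many cells, so that fewer cells with an open site and less opening per cell cannot be told apart.

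**Figure D4:**
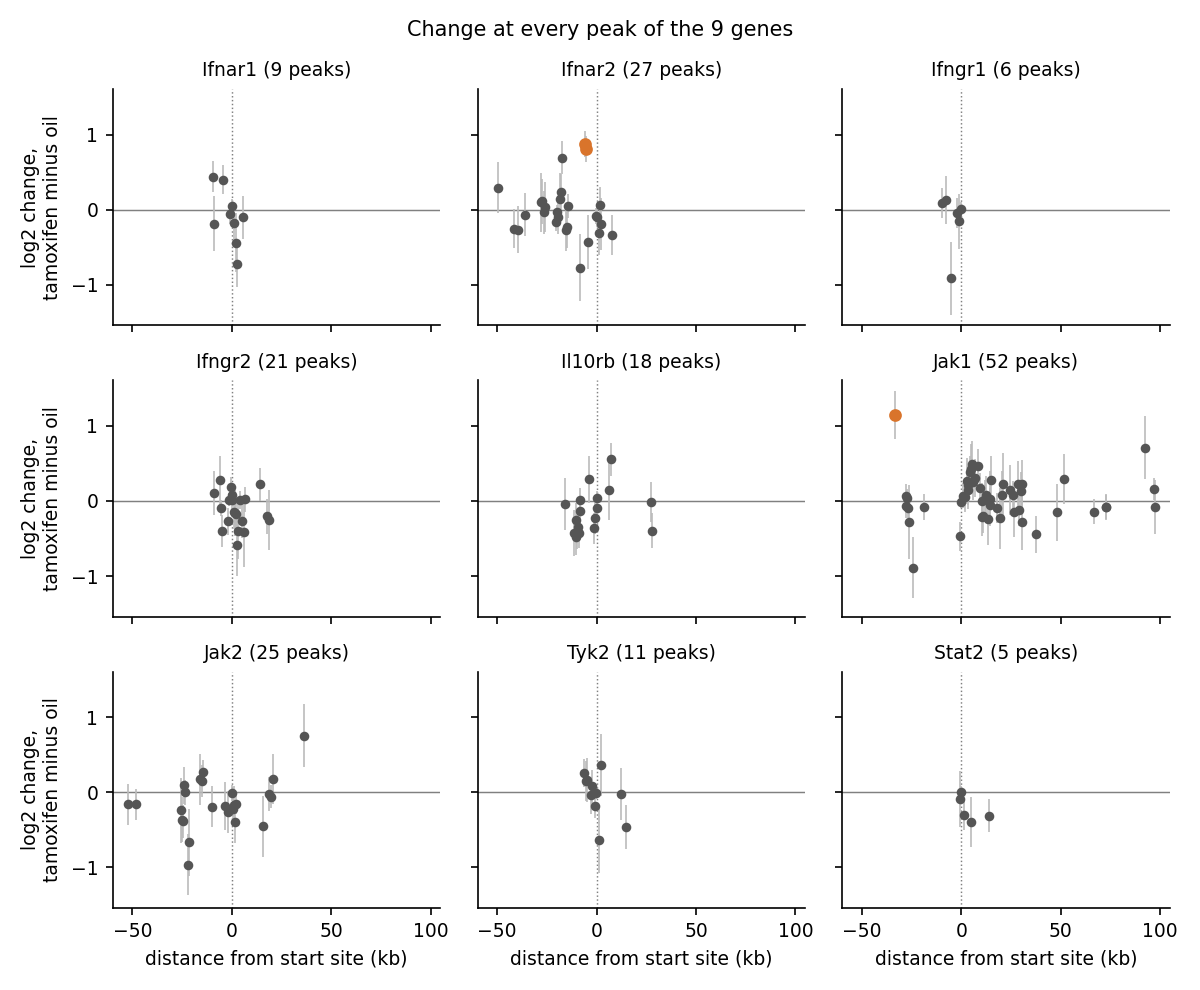
Log2 change of tags, tamoxifen minus oil (y axes), at each of the 174 peaks against distance from the TSS of its gene in kb (x axes), with 1 panel per gene. Points are peaks with SE bars, and orange points are the 3 that passed an adjusted p under 0.05. The start-site peaks lie near 0, and the extremes of 1.15 and -0.97 are distal peaks of Jak1 and Jak2.

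The 174 peaks were found in the peak lists of both groups in 133 cases, in the oil list alone in 29 and in the tamoxifen list alone in 12. Of all 175929 peaks, 125658 were in both lists, 30553 in the oil list alone and 19718 in the tamoxifen list alone. Peaks of the oil list alone had a median log2 change of -0.28 and 24.2 tags, and those of the tamoxifen list alone 0.29 and 33.5 tags, against -0.03 and 81.1 tags for shared ones. Since each list came from the libraries of its own group, these signs are not independent of the lists. The lower peaks given above at Jak2 -21865, Ifnar1 2471, Ifngr1 -5400 and Jak1 -24294 bp were in the oil list alone. They entered the table through the group where they held more tags, whereas the 3 peaks that passed were in both lists. By annotation 89 peaks were intronic, 68 intergenic and 14 at promoters. GAS letters were found in 7.47% of the member windows of 200 bp against 4.85% of all windows, AP-1 in 9.77% against 6.61%, RUNX in 14.4% against 18.7% and ISRE in 2.30% against 2.04%. Of the 4 members with ISRE letters, the Jak1 peak at -33283 bp was the 1 that passed, and the other three had log2 changes of -0.37 at Il10rb, -0.21 at Ifngr2 and -0.06 at Jak2. Median GC content was 49.0% in member windows and 50.5% in all.

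Other genes of the pathway were taken from a list of 54, of which 48 had peaks, 457 in number. Of these, 12 passed with more tags (2.63%, against the 1.21% of all peaks) and 1 with fewer tags after tamoxifen (0.219%, against 0.167%). Il10, which encodes interleukin 10, a ligand of the receptor that includes Il10rb, had 4 of its 16 peaks higher, with a log2 change of 1.43 at the peak with the smallest adjusted p (3.2e-10). Il10ra, the partner chain of Il10rb in that receptor, had 3 of 6 higher, with 0.59 at the leading peak (adjusted p = 3.1e-04). Most of the 12 higher peaks were thus those of Il10 and Il10ra. Among the 22 ligand genes of the list, Il10 was the 1 with a peak that passed. The list was chosen with earlier results of these data known, so its share of 2.63% is not independent of them. Among the restrainers, 4 of 241 peaks were higher (1.66%, near the share of all peaks). They were 1 of 3 peaks of Ptprc, 1 of 15 of Cish, 1 of 54 of Socs1 and 1 of 36 of Ptpn1, at log2 changes of 0.83, 0.69, 0.44 and 1.33. Ptprc encodes the phosphatase CD45, Ptpn1 the phosphatase PTP1B, and Cish and Socs1 belong to the SOCS family of signalling inhibitors. Il6ra, a chain of the interleukin 6 receptor, had 1 of 9 peaks higher at 0.44 (adjusted p = 0.0496), and Stat3 had 1 of 17 lower at -1.06 (adjusted p = 0.048). The count of 13 was 24 without tamoxifen replicate 4, 4 to 6 without any other library, and 25 by edgeR. Over all peaks, 2430 passed in the main fit, 6507 without tamoxifen replicate 4, 618 to 1084 without any other library, and 5127 by edgeR. Irf9 (0 of 6), the partner of STAT2, had none that passed, and neither did Usp18 itself (0 of 15).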

How the data were processed

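ATAC-seq was performed on 3 oil and 3 tamoxifen libraries, grouped by their sample titles. The authors mapped reads to mm10 with Bowtie2, called peaks with HOMER, merged 1 reproducible peak list per group, and annotated each merged peak with its nearest TSS. The deposited table gives raw tags per peak and library, an estimated count in steps of 0.5, not normalised. HOMER counted no more than 3 tags at any position, which can flatten very high peaks, and peaks called in neither group are missing from the table. Columns of the authors' own comparisons were not used.

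Tags were rounded to whole numbers and all 175929 peaks were fitted in DESeq2 1.42.0 (R 4.3.3) at default settings, comparing the tamoxifen with the oil group, and p-values were adjusted over all peaks after Benjamini and Hochberg. Normalised tags are rounded tags divided by DESeq2 size factors. Named for each gene were the peak nearest the TSS, the distal peak with the most tags and the peak with the smallest p, plus each peak past an adjusted p of 0.05. Further peaks are those with an unadjusted p under 0.05 or were chosen after their values were seen. Member genes, other pathway genes, markers and motifs were chosen with earlier results of these data known. Alternatives covered the edgeR 4.0.16 quasi-likelihood test, size factors, filters, the distance limit, the threshold and the libraries.

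Libraries of 1 group differed by more than counting error alone (chi-square divided by its degrees of freedom was 1.03 to 2.68), so no pair was treated as 1 library deposited again. At the value of 1.034 for oil replicates 1 and 2, the ratio cannot tell separate mice from repeated libraries of the same cells. Tested on simulated data in which 200 of 175929 peaks were altered, DESeq2 found 98% of peaks raised and 72% of peaks lowered by 2 on the log2 scale, 46% and 32% of those changed by 1, and called 0.0131% of unchanged peaks. The altered peaks were not drawn from the lowest ones, and both groups shared 1 spread per peak. In the data, tamoxifen libraries differed more from each other (1.484 to 2.679) than oil libraries (1.034 to 1.215), so these rates need not hold here. No peak (0) ended beyond the reference on the 21 chromosomes compared.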

Additional observations from a re-analysis of the deposited data

How the results depend on the processing

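The count of 3 member peaks past the adjusted threshold became 4 by edgeR and ran from 1 to 6 when 1 library was left out. The count of 1 with a fold over 2 was 0 by edgeR and within 20000 bp of a TSS, and 0 to 2 when 1 library was left out. At an unadjusted p under 0.05, edgeR gave 14 higher and 19 lower member peaks, and leaving out 1 library gave 4 to 9 higher and 1 to 13 lower. The median log2 change of -0.0602 ran from -0.0682 to -0.0279 when 1 library was left out, with the latter value without tamoxifen replicate 3. Other pathway peaks past the threshold numbered 25 by edgeR and 4 to 24 when 1 library was left out. Over all peaks, 2430 passed in the main fit, 5127 by edgeR and 618 to 6507 when 1 library was left out. Same-numbered libraries deviated from their groups with a correlation of -0.04 (replicates 1) or 0.05 (replicates 4), and the other numbers occur in 1 group each. The oil libraries differed by little more than counting error (chi-square divided by its degrees of freedom 1.034 to 1.215). Correlations near 0 therefore cannot exclude that the replicate numbers pair the libraries. With a replicate block, which then leaves 4 libraries to carry the contrast, member peaks past the threshold fell to 0, those with a fold over 2 to 0, those at an unadjusted p under 0.05 to 1 higher and 0 lower, and other pathway peaks to 0, while 54 of all peaks passed where 2430 had. The Ifnar2 pair kept positive log2 changes of 0.66 and 0.61 and the Jak1 peak 0.69 under the block. Among the 25 peaks named by rule that had not passed, which leave out the Ifnar2 peak at -17402 bp, 2 of 375 alternative values passed, at Il10rb and Jak2 as given above, and 30 changed sign. No peak that had passed changed sign. Under every alternative the 9 TSS peaks stayed within 0.16 of 0 on the log2 scale, with adjusted p-values of 0.55 or more. Depth limits the low peaks most, since members held as few as 14.6 tags on average. The causes of these differences were not tested.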
